A study of Homo sapiens with 14 samples.

Results

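The genes described are 40 human heat shock protein and chaperone genes, picked by symbol from 60683 Ensembl gene identifiers with counts in each library. They comprise 2 heat shock transcription factors, 9 genes of the HSP70 and HSP110 family, 7 genes of HSP90 and its co-chaperones, 6 J-domain co-chaperones with BAG3, 3 small heat shock proteins, 4 mitochondrial chaperones and the 8 subunits of the cytosolic chaperonin TRiC/CCT. The symbols were given as a list and no measured value of these libraries enters the rule, but the family was chosen with earlier results of these data known. Each symbol matched 1 identifier.

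Reads were counted in 14 libraries of polyadenylated RNA from 2 human cancer cell lines, with 2 libraries in each of 7 groups. A549, a lung cancer line grown in RPMI, was untreated, treated for 10 days with 2 µM palbociclib, with 0.5 µM indisulam or with both drugs at these doses, or treated for 7 days with 0.5 µM PF-06873600. SUM159, a triple negative breast cancer line grown in DMEM/F12 with insulin and hydrocortisone, was untreated or treated for 7 days with 0.5 µM PF-06873600. Palbociclib inhibits CDK4/6, indisulam directs the splicing factor RBM39 to degradation, and PF-06873600 inhibits CDK2/4/6. The drugs were given in the study to arrest cancer cells in senescence. The treatment times differ between the drugs, the day on which untreated cells were collected is not stated, and medium and cell line cannot be told apart. The series describes its pairs of libraries as technical duplicates, so the p-values measure the spread between these libraries, which may be technical.

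Heat shock proteins are molecular chaperones, which bind unfolded protein chains, keep them from aggregating and help them to fold. HSP70 proteins act in cycles that J-domain proteins start and nucleotide exchange factors such as HSPH1 and BAG3 end, and HSP90 then matures a narrower set of clients, many of them kinases and receptors. TRiC/CCT encloses newly made actin, tubulin and other chains in a double ring, HSP60 and HSP10 do so in mitochondria, and small heat shock proteins hold unfolded chains without using ATP. In stressed cells the transcription factor HSF1 raises many of these genes through heat shock elements in their promoters, and proliferating cancer cells are known to keep several of them at a high level.

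Each library held between 13060374 and 21149256 counts on genes. A floor of 3 counts equals 0.142 to 0.23 CPM, where CPM is the count scaled by its library total. All 40 members passed the filter on low counts in every model. Libraries of 1 group were not identical to within counting error (chi-square divided by degrees of freedom, 1.61 to 9.57), and the untreated A549 pair was the farthest apart. The A549 libraries held epithelial keratins at high levels (5 epithelial markers summed to between 4672 and 11850 CPM), whereas SUM159 libraries held between 428 and 755 CPM of them and between 7333 and 17680 CPM of 4 mesenchymal markers. The summed level of 3 blood markers was at most 1.36 CPM in A549 cells. In SUM159 cells it was at most 20.4 CPM, nearly all of it PTPRC. Of 3 endothelial markers, PECAM1 was at 25.5 and 27.6 CPM in PF-06873600-treated SUM159 cells, where VWF and CDH5 were under 1 CPM.

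As promoters of this family carry a well known regulatory motif, the promoter sequences are shown first. A heat shock element is built of units of GAA and its reverse TTC, placed head to head. In the 250 bases before the RefSeq transcription starts (assembly GRCh38.p14), windows were given for 35 of the 40 members. A pair of units, GAANNTTC or TTCNNGAA searched on both strands, was found in 16 of these 35 genes (45.7%), while 14% of 27305 genes with a window held it. A run of 3 units (each pair with 1 more inverted unit after 2 bases) was found in CHORDC1, DNAJB6, HSP90AA1, HSP90AB1, HSPA8 and HSPD1, which is 17.1% of the members against 0.557% of all genes. The following stretches, with the paired units in capitals, lie outside annotated exons. They are given for the cytosolic HSP90 genes and for CHORDC1, which hold runs of 3 units, and for DNAJB4, HSPB8 and HSPA1A, whose levels went against most of the family in at least 1 line. The stretches are HSP90AA1 at chr14:102087085-102087152 on the minus strand, HSP90AB1 at chr6:44247758-44247863 on the plus strand, CHORDC1 at chr11:90223078-90223129 on the minus strand, DNAJB4 at chr1:78004821-78004868, HSPB8 at chr12:119178823-119178870 and HSPA1A at chr6:31815417-31815464, the last 3 on the plus strand.
HSP90AA1: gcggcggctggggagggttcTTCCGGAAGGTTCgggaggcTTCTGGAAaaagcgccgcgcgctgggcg
HSP90AB1: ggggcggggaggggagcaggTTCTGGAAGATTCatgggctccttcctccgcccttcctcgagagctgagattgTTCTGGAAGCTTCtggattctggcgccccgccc
CHORDC1: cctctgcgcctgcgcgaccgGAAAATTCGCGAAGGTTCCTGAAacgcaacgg
DNAJB4: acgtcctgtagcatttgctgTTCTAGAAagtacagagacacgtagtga
HSPB8: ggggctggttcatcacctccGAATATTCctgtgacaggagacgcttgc
HSPA1A: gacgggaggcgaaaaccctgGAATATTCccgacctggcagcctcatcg
HSP90AB1 holds 2 separate runs in this stretch, CHORDC1 holds 4 overlapping pairs, and DNAJB4, HSPB8 and HSPA1A hold a lone pair. A match of letters is a description of the promoter, and binding of a heat shock factor was not measured here.

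The summed level of the 40 genes was similar across A549 libraries and differed between the lines. In untreated A549 cells the members held 1.15% and 1.18% of all counts on genes, and in PF-06873600-treated A549 cells 1.38% and 1.37%. In SUM159 cells their share was 2.16% and 2.03% without treatment and 1.06% and 1.05% with PF-06873600. Per kilobase of transcript, HSPA8, the constitutive HSP70, was the highest member in untreated cells of both lines (866 ± 46.9 CPM per kb in A549 and 1580 ± 76.2 CPM per kb in SUM159, SD, n = 2), followed by HSP90AB1 and HSP90AA1. The lowest was HSPA2, a testis-enriched HSP70, with 1.6 CPM per kb in A549 and 1.7 CPM per kb in SUM159.

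**Figure D1:**
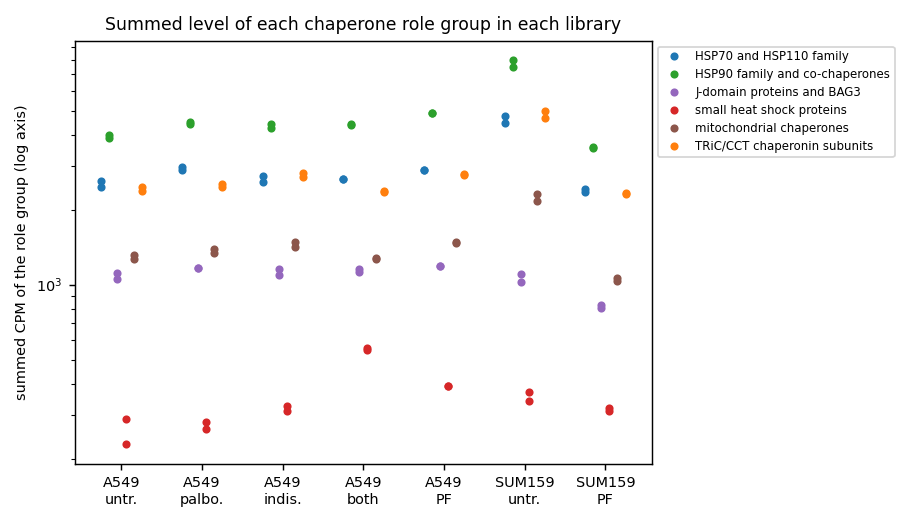
Summed CPM of each role group (log axis) in each library of the 7 groups, with 1 point a library; the 2 transcription factors are left out. The small heat shock proteins stand highest in A549 cells given both drugs (546 and 557 CPM), and the HSP90, TRiC/CCT, HSP70 and mitochondrial groups are highest in untreated SUM159 cells.

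Treated cells were compared with untreated cells of the same line by an edgeR quasi-likelihood test over all genes, and a member is called higher or lower at a Benjamini-Hochberg adjusted p under 0.05. With palbociclib, 13 members were higher and 0 lower in A549 cells, where 8.30% of 15780 tested genes were higher and 7.40% lower. At an unadjusted p under 0.05 no member was lower either, and DESeq2 called 11 higher and 0 lower. The changes were small, with HSPA2 at a log2 change of 0.76, HSPB8 at 0.58 and HSPH1 at 0.46 in front. Only HSPB8, HSPH1 and CHORDC1 kept their call under every alternative, since the count fell to 4 without palbociclib replicate 1, to 5 without palbociclib replicate 2 and to 4 with only the compared groups in the model.

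With indisulam, 20 members were higher and 4 lower than in untreated A549 cells, beside 28.0% and 17.5% of all genes. HSPA2 (log2 change 1.09), CHORDC1 (0.92) and HSPB8 (0.67) rose most, and DNAJB4 fell most, by 0.45 on the log2 scale. The count depended on the scaling of the libraries. With TMM factors 11 members were higher and 6 lower, and with DESeq2 10 were higher and 5 lower. The median over all genes was 0.08 (log2) without and 0.00 with TMM factors.

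With both drugs, 13 members were higher and 8 lower than in untreated cells, beside 35.1% and 30.0% of all genes, and the median change of the 40 members was 0.01 (0.05 over all genes). With TMM factors 13 were higher and 13 lower. A large rise was seen in few members. HSPB8, CRYAB and HSPA2 were at least 2-fold higher, whereas no other member passed a 2-fold change in this comparison, in which 25.6% of all genes did. The call of every member but TRAP1 was kept under all alternatives. The largest fall was that of HSPA13, by 0.78 on the log2 scale.

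PF-06873600 gave opposite directions in the 2 lines. In A549 cells 25 members were higher and 5 lower, beside 28.5% and 27.8% of all genes, and the median member change was 0.21 on the log2 scale (-0.01 over all genes). In SUM159 cells 4 members were higher and 33 lower, beside 38.1% and 35.6% of 15055 tested genes, and the median member change was -0.90 (0.02 over all genes). Of these SUM159 calls 19 were changes of at least 2-fold, beside 27.3% of all genes in this line, and in A549 cells 1 was, beside 17.7%. All 37 SUM159 calls were kept under every alternative. The libraries of treated and untreated SUM159 cells did not overlap for any of the 40 members, which was also the case for 86.1% of all tested genes. These are bulk levels relative to the library total, and fewer cells that express a gene and less RNA of it per cell cannot be told apart. In the same SUM159 libraries the mean level of all 5 proliferation markers was lower with treatment (summed 2030 to 2196 CPM before and 718 to 719 CPM after), and in A549 they summed to 537 to 573 CPM in untreated cells, 459 to 481 CPM with palbociclib, 441 to 462 CPM with indisulam, 121 to 125 CPM with both drugs and 344 to 365 CPM with PF-06873600. MCM2 went against these sums, with 50.7 and 48.5 CPM in untreated A549 cells, 76.8 and 77.7 CPM with palbociclib, 57 and 60.6 CPM with indisulam and 82.5 and 92.1 CPM with PF-06873600. The part of proliferation in the chaperone levels was not tested. Of the 4 mesenchymal markers FN1 was at 13680 and 13795 CPM in treated against 2764 and 3527 CPM in untreated SUM159 cells, VIM was lower (3609 and 3610 against 4318 and 4006 CPM), and ZEB1 and CDH2 were higher by a smaller margin, at 82.3 and 82.7 against 69.5 and 64.1 CPM and at 198 and 193 against 182 and 178 CPM.

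**Figure D2:**
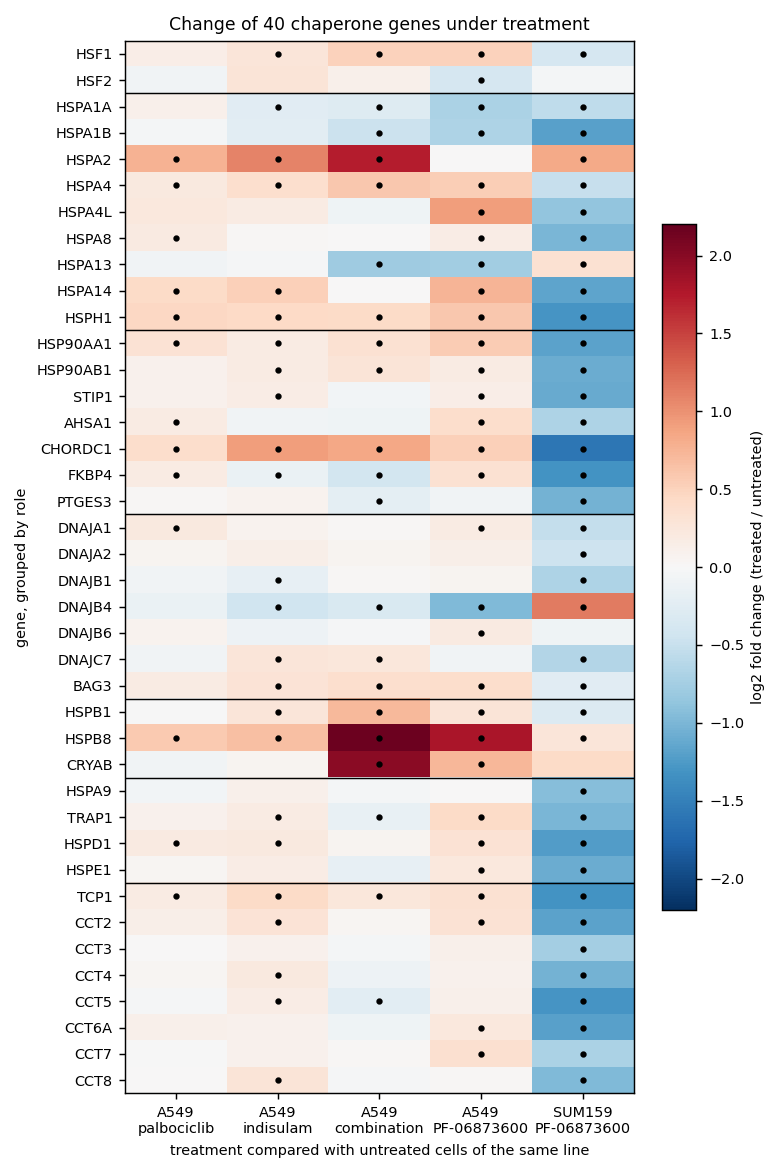
Log2 fold change of each of the 40 genes (rows, grouped by role) in the 5 comparisons of treated with untreated cells (columns), with a dot where the adjusted p is under 0.05. Changes in A549 are mostly pale, and only HSPB8, CRYAB and HSPA2 reach a 2-fold change there. Next in A549 come DNAJB4 (-0.98) and HSPA4L (0.92) with PF-06873600, CHORDC1 (0.92) with indisulam and HSPA13 (-0.78) with both drugs. In SUM159 33 of 40 genes are called lower.

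The transcription factors themselves changed by less than 2-fold with every treatment. HSF1, the main regulator of the heat shock response, was at 116 and 85.9 CPM in untreated A549 cells, 146 and 140 CPM with both drugs and 138 and 149 CPM with PF-06873600. It was thus higher in all 4 treated libraries, by 0.50 ± 0.10 and 0.51 ± 0.10 on the log2 scale (SE, adjusted p = 0.000457 and 0.000514). As its untreated libraries were far apart, the values were 0.30 and 0.31 without untreated replicate 2, still past the threshold. In SUM159 cells it fell by 0.37 ± 0.06, from 88.2 and 93.6 CPM to 67.9 and 72.9 CPM. HSF2, a developmental heat shock factor, stood between 7.3 and 17.2 CPM in all libraries and among treated groups was called only with PF-06873600 in A549 (-0.37 ± 0.12), a call that was lost with DESeq2 (adjusted p = 0.161).

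Of the small heat shock proteins, all 3 were higher in A549 cells with both drugs and with PF-06873600, 2 with indisulam and 1 with palbociclib. HSPB8 (chr12:119171555-119224855 in GRCh38, plus strand) works with BAG3 in the removal of misfolded proteins by autophagy. It was at 31.5 and 30 CPM in untreated cells, 47.3 and 44.8 CPM with palbociclib, 47.5 and 50.2 CPM with indisulam, 140 and 136 CPM with both drugs and 108 and 105 CPM with PF-06873600. Every treated library lay above both untreated libraries, and the combination above each drug alone. The change was 4.48-fold with both drugs (log2 2.16 ± 0.07, adjusted p = 1.77e-12) and 3.47-fold with PF-06873600 (log2 1.79 ± 0.07, adjusted p = 3.41e-11). In SUM159 cells HSPB8 was already at 64.5 and 56.1 CPM and stood at 74.1 and 71.7 CPM with PF-06873600, a rise of 0.27 ± 0.07 (adjusted p = 0.00248) that was 0.17 without untreated SUM159 replicate 2.

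CRYAB (chr11:111908564-111923722, minus strand) encodes the alpha B crystallin of lens and muscle. It stayed at 17.5 and 17 CPM in untreated A549 cells, 16.9 and 15.9 CPM with palbociclib and 18.4 and 17.6 CPM with indisulam, and then reached 69.7 and 67.6 CPM when the drugs were combined. Its levels under either drug alone were not called different from untreated cells, whereas the combination was 3.97-fold above untreated cells (log2 1.99 ± 0.08, adjusted p = 3.17e-11). PF-06873600 gave 29.8 and 27.5 CPM, a log2 change of 0.73 ± 0.09. In SUM159 cells CRYAB was low, with 3.02 and 1.94 CPM before and 3.39 and 3.31 CPM after treatment, and this difference did not pass the test (log2 0.43 ± 0.24, adjusted p = 0.119). CRYAB overlaps HSPB2 on the other strand over 13.6% of its exon bases, and the use of strand in the counting is not stated.

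HSPB1 (HSP27), the highest of the 3 per kilobase in all libraries, was at 239 and 181 CPM in untreated A549 cells and at 347 and 343 CPM with both drugs, a rise of 0.71 ± 0.09 (adjusted p = 9.09e-06). The pair of untreated libraries was far apart for this gene, and its smaller changes with indisulam (0.26) and PF-06873600 (0.29) were lost without untreated replicate 2 (adjusted p = 0.32 and 0.153). In SUM159 cells it fell by 0.30 ± 0.06, from 304 and 283 CPM to 233 and 244 CPM.

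**Figure D3:**
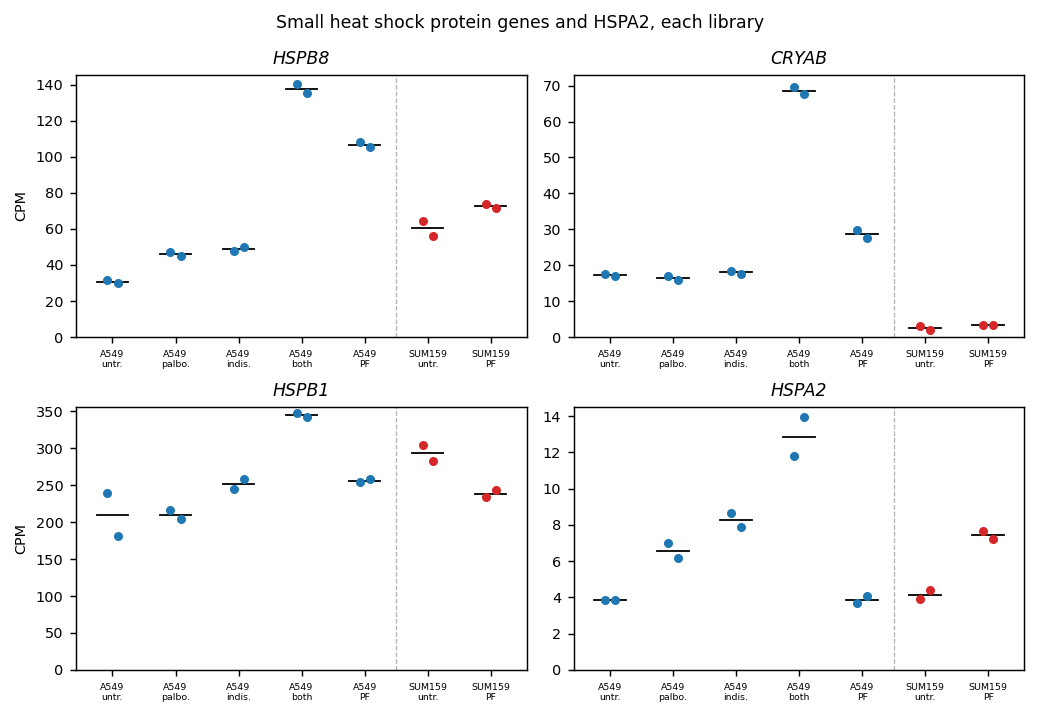
CPM of HSPB8, CRYAB, HSPB1 and HSPA2 in each library (points) of the 7 groups, with a line at the group mean and a linear axis from 0; A549 is blue and SUM159 red. HSPB8 and CRYAB are highest in A549 cells given both drugs (136 and 140 CPM, 67.6 and 69.7 CPM), and HSPA2 rises with each of palbociclib, indisulam and their combination.

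In the HSP70 and HSP110 family, HSPA2 (chr14:64535905-64546173, plus strand) rose with each A549 treatment that contained palbociclib or indisulam. It was at 3.87 CPM in both untreated libraries, 6.98 and 6.16 CPM with palbociclib, 8.64 and 7.86 CPM with indisulam, 11.8 and 14 CPM with both drugs, and 3.68 and 4.08 CPM with PF-06873600. The groups given palbociclib, indisulam and both did not overlap, in this order, and PF-06873600 lay around the untreated level. The change with both drugs was 3.33-fold (log2 1.73 ± 0.15, adjusted p = 1.52e-07), and the call with palbociclib was lost without palbociclib replicate 1 (adjusted p = 0.0555). In SUM159 cells HSPA2 rose with PF-06873600 by 0.84 ± 0.16 (adjusted p = 0.000265), from 3.92 and 4.38 CPM to 7.66 and 7.23 CPM.

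HSPA8, the highest member per kilobase in untreated cells, changed little in A549 cells, where all libraries lay between 1886 and 2292 CPM. In SUM159 cells it fell from 3699 and 3455 CPM to 1825 and 1750 CPM (2-fold lower, adjusted p = 2.55e-08). HSPH1, an HSP110 that exchanges the nucleotide of HSP70, was higher with every A549 treatment, at 122 and 126 CPM in untreated cells, 169 and 171 CPM with palbociclib, 168 and 166 CPM with indisulam, 166 and 167 CPM with both drugs and 187 and 184 CPM with PF-06873600. These rises of 0.43 to 0.58 on the log2 scale were kept under every alternative. In SUM159 cells HSPH1 went the other way, from 449 and 438 CPM to 181 and 179 CPM, which is 2.46-fold lower (log2 -1.30 ± 0.06, adjusted p = 2.96e-11). With PF-06873600 the 2 lines ended at nearly the same level of this gene.

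HSPA14, a ribosome-associated HSP70, rose with palbociclib (15.7 and 15.3 CPM), indisulam (17.1 and 16.3 CPM) and PF-06873600 (18.9 and 19.8 CPM) from 11.5 and 11.7 CPM in untreated A549 cells. With both drugs it was at 12.1 and 11.1 CPM, around the untreated level. The call with palbociclib was lost with DESeq2 (adjusted p = 0.0866), with only the compared groups (adjusted p = 0.0894) and without either palbociclib library. In SUM159 cells HSPA14 fell from 40.2 and 35.3 CPM to 15.5 and 18.2 CPM (log2 -1.16 ± 0.10). HSPA14 shares 12.7% of its exon bases with MSANTD7 on the same strand. HSPA4, another HSP110 relative, was higher with each A549 treatment, up to 0.60 ± 0.05 with both drugs, and lower in SUM159 (-0.51 ± 0.05). Its palbociclib call was lost with only the compared groups (adjusted p = 0.134) and without either palbociclib library. HSPA4L, a close relative of HSPA4, was called against untreated A549 cells only with PF-06873600, where it rose by 0.92 ± 0.08. In SUM159 HSPA4L fell by 0.86 ± 0.06.

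The stress-inducible pair HSPA1A and HSPA1B was not raised by any treatment. HSPA1B was at 56 and 44 CPM in untreated A549 cells, 35.3 and 37.1 CPM with both drugs and 31.5 and 30.9 CPM with PF-06873600, and in SUM159 it fell from 52.9 and 47 CPM to 22.2 and 21.5 CPM (log2 -1.20 ± 0.08, adjusted p = 3.88e-09). Without untreated replicate 1 the HSPA1B change with both drugs was -0.28 in place of -0.47. HSPA1A fell with PF-06873600 by 0.70 ± 0.08 in A549 and by 0.57 ± 0.10 in SUM159. The genes are nearly identical, and 74.3% of the 65-base windows along the HSPA1A transcript also occur in HSPA1B, so the counted reads come from the remainder and the level of each gene is uncertain. HSPA13, a microsomal HSP70 relative, fell in A549 cells with both drugs (-0.78 ± 0.08) and PF-06873600 (-0.76 ± 0.08) and rose in SUM159 cells (0.34 ± 0.06, adjusted p = 0.000215).

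Of the HSP90 group, all 7 genes fell in SUM159 cells, by 0.69 to 1.59 on the log2 scale. The largest fall of all members was that of CHORDC1 (chr11:90200429-90223077, minus strand), an HSP90 co-chaperone with zinc-binding CHORD domains, from 120 CPM in both untreated libraries to 40.1 and 39.7 CPM, which is 3.01-fold (log2 -1.59 ± 0.06, adjusted p = 4.43e-12). Both treated SUM159 libraries lay below every A549 library. In A549 cells CHORDC1 was higher with every treatment. It was at 58.3 and 60.3 CPM in untreated cells, 75 and 80.8 CPM with palbociclib, 111 and 114 CPM with indisulam, 106 and 107 CPM with both drugs and 85.1 and 85.4 CPM with PF-06873600. The groups given indisulam thus lay highest, 0.92 ± 0.06 and 0.85 ± 0.06 above untreated cells (adjusted p = 2.95e-08 and 1.96e-08).

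HSP90AA1, the inducible cytosolic HSP90, rose in A549 from 1297 and 1386 CPM to 1678 and 1709 CPM with both drugs and 1977 CPM in both libraries with PF-06873600 (log2 0.34 ± 0.06 and 0.56 ± 0.06), and fell in SUM159 from 3200 and 2960 CPM to 1396 and 1340 CPM (log2 -1.17 ± 0.08). HSP90AB1, the constitutive form, was at 1156 and 1138 CPM in untreated A549 cells and rose to 1394 and 1383 CPM with both drugs (0.28 ± 0.05), while in SUM159 it fell from 3019 and 2848 CPM to 1362 and 1378 CPM (-1.10 ± 0.08). The co-chaperones that guide HSP90 through its cycle fell with it in SUM159. FKBP4, an immunophilin of steroid receptor complexes, went from 288 and 283 CPM to 116 and 113 CPM (2.48-fold lower, adjusted p = 1.98e-11). STIP1 (HOP), which hands clients from HSP70 to HSP90, went from 499 and 465 CPM to 232 and 217 CPM, and PTGES3 (p23) from 629 and 592 CPM to 296 and 301 CPM. AHSA1, the activator of the HSP90 ATPase, fell least of the 7, by 0.69 ± 0.06.

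In A549 cells FKBP4 was at 287 and 289.7 CPM without treatment, 332 and 323 CPM with palbociclib and 265 and 258 CPM with indisulam. It was at 362 and 366 CPM with PF-06873600 and 218.5 and 219 CPM with both drugs. FKBP4 thus lay above the untreated level with PF-06873600 (0.33 ± 0.05) and below it with both drugs (-0.40 ± 0.05). It had smaller calls with palbociclib (0.18) and indisulam (-0.14). Both were lost with only the compared groups in the model (adjusted p = 0.196 and 0.182). TRAP1, the mitochondrial HSP90, was also called higher with PF-06873600 (0.41) and lower with both drugs (-0.16). The latter call was lost without the filter on low counts (adjusted p = 0.0519) and with only the compared groups (adjusted p = 0.111). It was also lost without untreated replicate 1 or either combination library. PTGES3 was also lower with both drugs (-0.21 ± 0.06).

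Among J-domain proteins, DNAJB4 (chr1:77979175-78017964, plus strand), a cytosolic HSP40, went against most called genes of its group with PF-06873600 in each line. In A549 cells it fell with PF-06873600, from 41.9 and 45.6 CPM to 21.9 and 22.6 CPM (log2 -0.98 ± 0.09, adjusted p = 3.32e-07). In SUM159 cells it rose from 37.1 and 33.1 CPM to 81.9 and 74 CPM, 2.22-fold (log2 1.15 ± 0.07, adjusted p = 2.76e-09), the largest rise of any member in that line. DNAJB4 was also lower in A549 with indisulam, at 30.1 and 34.1 CPM (-0.45 ± 0.08), and with both drugs, at 33.5 and 36 CPM (-0.33 ± 0.08), and was at 40.7 and 38.7 CPM with palbociclib, which did not pass the test. The other J-domain genes and BAG3 were called in few A549 comparisons, with changes of at most 0.39 on the log2 scale. In SUM159 DNAJB1, the stress-inducible HSP40, fell by 0.68 ± 0.06, DNAJC7 by 0.64 ± 0.05, DNAJA1 by 0.53 ± 0.06, DNAJA2 by 0.45 ± 0.06 and BAG3 by 0.25 ± 0.06, and DNAJB6 (-0.10 ± 0.06, adjusted p = 0.134) did not pass the test.

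All 4 mitochondrial chaperones fell in SUM159 cells. HSPD1 (HSP60) went from 1240 and 1155 CPM to 519 and 507 CPM, which is 2.33-fold lower (adjusted p = 3.96e-10), and its partner HSPE1 (HSP10), which lies head to head with HSPD1 on chromosome 2, from 61.3 and 62.1 CPM to 26.5 and 31.2 CPM. TRAP1 went from 275 and 255 CPM to 136 and 127 CPM (log2 -1.01 ± 0.06), and HSPA9 (mortalin) fell by 0.93 ± 0.06. In A549 cells TRAP1 (0.41 ± 0.06) and HSPD1 (0.31 ± 0.06) rose with PF-06873600, HSPA9 stood at a log2 change of 0.00, and the call of HSPE1 (0.23 ± 0.09) was lost with DESeq2 (adjusted p = 0.084). Of the 65-base windows of HSPE1 25.5% also lie in HSPE1-MOB4, and 20.6% of those of TRAP1 lie in DNASE1 on the other strand.

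The 8 TRiC/CCT subunits fell together in SUM159 cells, by 0.70 to 1.31 on the log2 scale. Before treatment the 8 genes summed to 4993 and 4686 CPM, and with PF-06873600 to 2343 and 2319 CPM, close to the 2370 and 2464 CPM of untreated A549 cells. TCP1 went from 705 and 655 CPM to 275 and 274 CPM (2.47-fold lower, adjusted p = 8.18e-11) and CCT5 from 987 and 911 CPM to 393 and 378 CPM (2.46-fold lower, adjusted p = 1.79e-10). CCT6A fell from 577.8 and 548.7 CPM to 245 and 247 CPM, CCT2 from 476 and 468 CPM to 209 and 206 CPM, and CCT4 from 467 and 433 CPM to 214 and 221 CPM. The smallest falls were those of CCT8 (-0.97 ± 0.06), CCT3 (-0.74 ± 0.06) and CCT7 (-0.70 ± 0.06).

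In A549 cells the subunits did not move as a body. TCP1 was at 218.6 and 221 CPM in untreated cells, 254 and 246 CPM with palbociclib and 285 and 303 CPM with indisulam. It was at 259.8 and 266 CPM with both drugs and 285 and 273 CPM with PF-06873600. All 8 treated libraries thus lay above the untreated pair (log2 changes of 0.18 to 0.42, all called). The palbociclib call was lost without the filter on low counts (adjusted p = 0.0505) and with only the compared groups (adjusted p = 0.197). It was also lost without either palbociclib library. CCT5 was at 330.2 and 362 CPM in untreated cells and fell to 295 and 294 CPM with both drugs (-0.23 ± 0.06). CCT2 was higher with indisulam, at 342 and 355 CPM against 276 and 291 CPM (0.30 ± 0.05), and at 292 and 294 CPM with both drugs, close to the untreated level. CCT3 was not called in any of the 4 comparisons with untreated cells. With PF-06873600 CCT7 (0.35 ± 0.05), CCT2 (0.31 ± 0.05, at 354 and 350.1 CPM) and CCT6A (0.23 ± 0.05) rose besides TCP1. For CCT5, 53.3% of the 65-base windows occur in other genes, mostly an antisense RNA, and for TCP1 19.5%, mostly ACAT2 on the other strand.

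**Figure D4:**
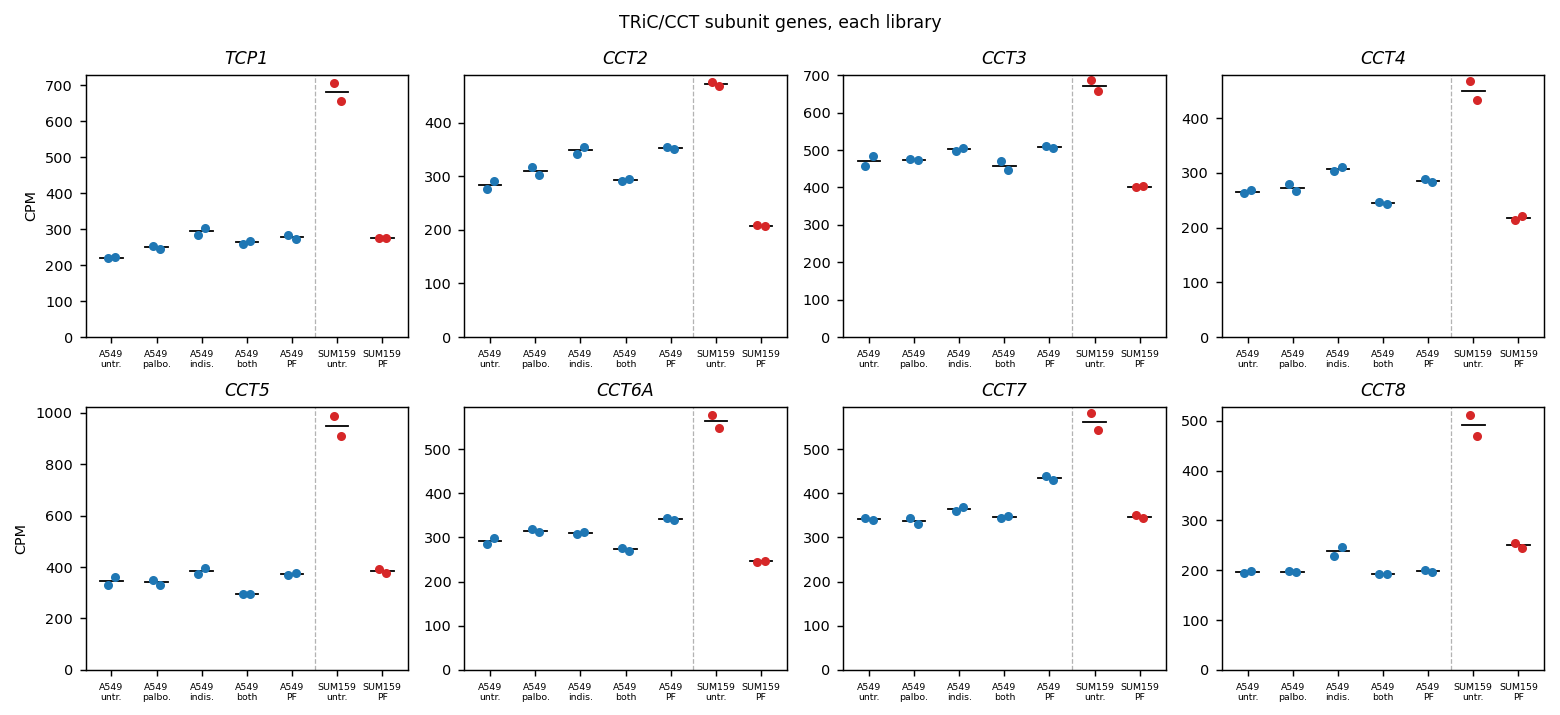
CPM of the 8 TRiC/CCT subunit genes in each library (points) of the 7 groups, with a line at the group mean and linear axes from 0; A549 is blue and SUM159 red. Each subunit is highest in untreated SUM159 cells, and the PF-06873600-treated SUM159 libraries lie near or below the level of A549 (TCP1 at 275 and 274 CPM).

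Combined treatment was then set against each single drug, to see what the second drug adds. Against palbociclib alone 10 members were higher and 17 lower with both drugs, beside 33.5% and 26.9% of all genes. Against indisulam alone 7 were higher and 16 lower, beside 22.0% and 23.9%. All 3 small heat shock proteins were higher in both comparisons, with CRYAB at 4.19-fold and 3.82-fold (log2 2.07 ± 0.08 and 1.93 ± 0.08) and HSPB8 at 3-fold and 2.82-fold (log2 1.58 ± 0.06 and 1.5 ± 0.06). HSPA2 and HSPA4 were also higher in both, and HSPA13 was the lowest in both (-0.69 ± 0.08 and -0.75 ± 0.08). Against indisulam all 4 mitochondrial chaperones and 6 of 8 TRiC/CCT subunits were lower, by 0.15 to 0.39 on the log2 scale. Of these, HSPD1, HSPA9, TCP1 and CCT6A lost the call with DESeq2 and HSPE1 without combination replicate 2. The lower counts were 10 without palbociclib replicate 1 in the first comparison, and 10 without indisulam replicate 2 and without combination replicate 2 in the second.

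The interaction term tests whether the change with both drugs differs from the sum of the log2 changes with each. It was above 0 for 4 members and below 0 for 18, beside 10.7% and 14.5% of all genes. The members above the sum were CRYAB (2.01 ± 0.12, adjusted p = 4.02e-08), HSPB8 (0.92 ± 0.10, adjusted p = 7.37e-06), HSPB1 (0.46 ± 0.13, adjusted p = 0.0195) and DNAJB1 (0.28 ± 0.08, adjusted p = 0.0239). The last 2 calls were lost without some of the libraries, the HSPB1 value was 0.24 without untreated replicate 1, and 2 members remained above 0 without palbociclib replicate 2, indisulam replicate 1 or either combination library. Below the sum were HSPA14 (-0.95 ± 0.14, adjusted p = 0.000231), HSPA13 (-0.66 ± 0.12), HSPA4L (-0.51 ± 0.12), CHORDC1 (-0.47 ± 0.09), HSPH1 (-0.46 ± 0.07), TRAP1 (-0.44 ± 0.08) and FKBP4 (-0.44 ± 0.07), together with 6 TRiC/CCT subunits at -0.29 to -0.38. Of these subunits, CCT6A lost its call without combination replicate 2 and CCT8 without indisulam replicate 2. HSPE1 and DNAJA1, also called below the sum, lost their calls with DESeq2 (adjusted p = 0.122 and 0.0765). For HSPA14, each drug alone raised the level and both together did not, though the palbociclib call was lost under the alternatives given above.

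The difference between the lines in their response to PF-06873600 was tested in a model of all 14 libraries. The response of SUM159 was below that of A549 for 34 members and above it for 3, beside 27.2% and 25.8% of 17279 genes, and the median difference was -1.04 on the log2 scale (0.04 over all genes). The largest differences below 0 were those of CHORDC1 (-2.11 ± 0.08), HSPA14 (-1.90 ± 0.14), HSPH1 (-1.89 ± 0.07), HSPA4L (-1.78 ± 0.10) and HSP90AA1 (-1.73 ± 0.08), with adjusted p from 1.58e-13 to 1.88e-09. Those above 0 were DNAJB4 (2.12 ± 0.12, adjusted p = 3.74e-11), HSPA13 (1.10 ± 0.11, adjusted p = 9.96e-08) and HSPA2 (0.83 ± 0.24, adjusted p = 0.00634). For 22 members the change was called higher in A549 and lower in SUM159, beside 10.5% of the 13607 genes tested in both lines, and for DNAJB4 and HSPA13 the reverse, beside 9.30%. HSPB8 was higher in both lines, and HSPA1A and HSPA1B were lower in both. The difference did not pass the test in 3 members, with HSPA1A at 0.13 ± 0.13 (adjusted p = 0.419), CRYAB at -0.30 ± 0.22 (adjusted p = 0.267) and HSF2 at 0.32 ± 0.15 (adjusted p = 0.0825).

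**Figure D5:**
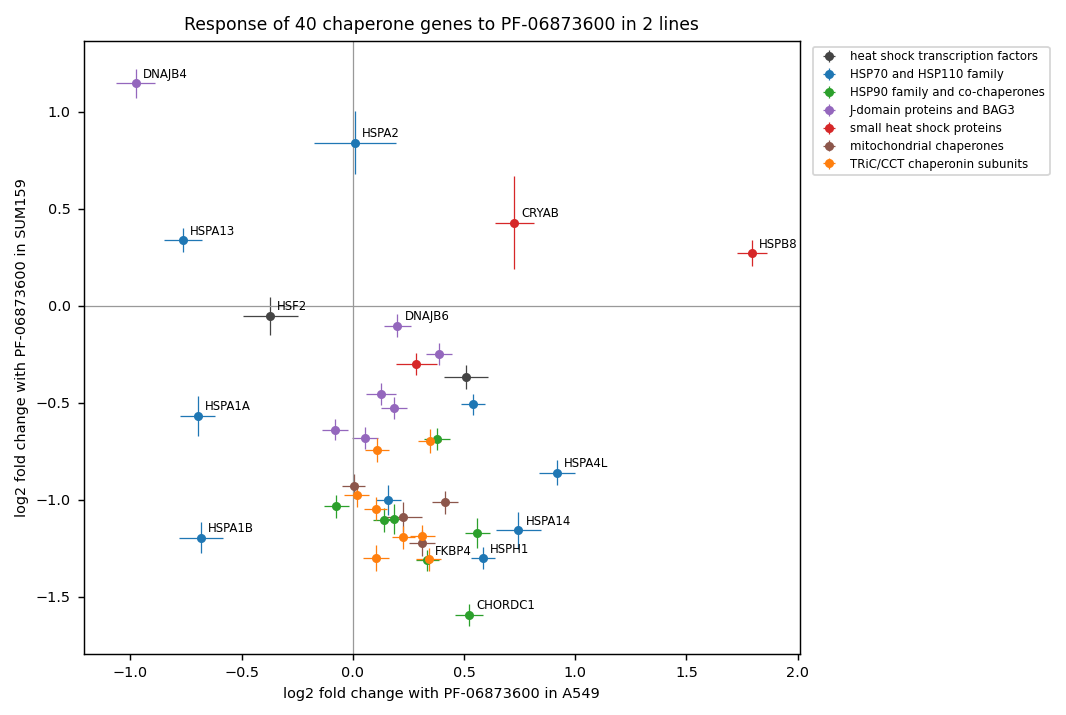
Log2 fold change with PF-06873600 against untreated cells in A549 (x axis) and in SUM159 (y axis) for the 40 genes, coloured by role, with bars for the SE. Most genes lie to the right of 0 and well below 0, and DNAJB4 (-0.98 in A549, 1.15 in SUM159) lies in the opposite corner.

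Untreated SUM159 cells started from higher levels than untreated A549 cells. Of the 40 members 29 were higher and 5 lower in SUM159, beside 41.9% and 36.8% of all genes, and with TMM factors 26 were higher and 9 lower. HSPH1 was the highest in relation to A549 (3.59-fold, log2 1.84 ± 0.05), followed by HSPA14 (1.71 ± 0.10), TCP1 (1.63 ± 0.06), CCT5 (1.45 ± 0.06), HSP90AB1 (1.35 ± 0.05) and CCT8 (1.32 ± 0.06), and all 8 TRiC/CCT subunits and all 4 mitochondrial chaperones were higher. CRYAB was 6.92-fold lower in SUM159 (log2 -2.79 ± 0.15, adjusted p = 1.18e-12), and HSPA1A was 3.60-fold lower (log2 -1.85 ± 0.09). The untreated SUM159 libraries are shared by this comparison and the response of SUM159 to PF-06873600, so the values are given side by side and no relation between them was computed. The same untreated libraries also held the highest levels of the proliferation markers, and the mitochondrially encoded share of their counts was 2.38% and 4%, where the other libraries lay between 3.88% and 6.05%.

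When the members were set side by side by their promoters, the 6 genes with a run of 3 heat shock units had a median log2 change of -1.14 with PF-06873600 in SUM159 cells, with 5 of 6 called lower, against -0.70 in the 29 other members with a window, of which 24 were lower and 4 higher. In A549 cells with PF-06873600 the medians were 0.26 and 0.13. All 6 genes with the run were called higher, as were 14 of the 29 others and 28.5% of all genes. Of the 6, the HSPA8 call was lost with only the compared groups (adjusted p = 0.0833) and without some of the libraries. The HSP90AB1 call was lost without PF-06873600 replicate 1 and the DNAJB6 call without PF-06873600 replicate 2. With both drugs the medians were 0.17 and -0.03. HSPB8, DNAJB4 and HSPA1A, shown above with a lone pair, did not move alike. These are medians of few genes and no test was made on them.

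Other genes of the chaperone system were counted from lists of 112 symbols, of which 110 matched a single identifier and between 99 and 102 were tested in a model. Those named below are given by log2 change alone, without their levels, so a large change may rest on few counts. With PF-06873600 in SUM159 cells 34 of them were higher and 49 lower, beside 38.1% and 35.6% of all tested genes. Their median log2 change was -0.18, which is nearer to 0 than the -0.90 of the members. In A549 cells 27 were higher and 31 lower with PF-06873600, beside 28.5% and 27.8% of all genes. With both drugs 25 and 39 were, beside 35.1% and 30.0%. The counts were 24 and 18 with indisulam, beside 28.0% and 17.5%, and 4 and 9 with palbociclib, beside 8.30% and 7.40%. Against palbociclib alone the combination had 24 higher and 37 lower, beside 33.5% and 26.9%. Against indisulam alone it had 15 and 32, beside 22.0% and 23.9%. With 99 to 102 genes tested, these counts are close to percentages. Those with indisulam and with PF-06873600 in A549 lay near the shares of all genes.

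By list, the counts in treated SUM159 cells stand beside 38.1% of all tested genes higher and 35.6% lower. The nucleotide exchange factors and HSP70 regulators fell in 9 of 11 genes. Among them HSPBP1, an exchange factor of HSP70, was the lowest (-1.51). SIL1, which acts on the HSP70 of the endoplasmic reticulum, was the highest (1.08). Of 8 genes of mitochondrial protein quality control 7 were lower and SPG7 was higher (0.29). Of 15 tested prefoldins and chaperonin helpers 8 were lower and 3 higher, and CCT6B, a testis-enriched relative of CCT6A, had the largest rise of all listed genes (3.32). Of 36 other J-domain genes 15 were higher, with DNAJC12 in front (1.68), and 16 lower. Of 14 other HSP90 co-chaperones 3 were higher and 6 lower, and of 5 tested HSP70 genes outside the members 2 were higher and 2 lower. The list of heat shock factor regulators and other heat-shock-inducible genes went the other way, with 7 of 11 higher and 1 lower and a median log2 change of 0.33. In it SQSTM1, an autophagy receptor, was the highest (1.90), and HMOX1, heme oxygenase 1, the lowest (-0.76). HSPB3 was the only tested gene of the other small heat shock proteins, with a log2 change of 1.63.

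In A549 cells given both drugs, HSPA6, a strictly inducible HSP70, had the largest rise of the listed genes (3.12), and ATF3, a stress-induced transcription factor, rose by 2.57. ATF3 was 1 of 6 genes that were higher in the list of 11 heat shock factor regulators and other inducible genes. In this list 3 were lower, led by HSBP1 (-0.35), a binding protein of HSF1. Over all genes 35.1% were higher and 30.0% lower in this comparison. FKBP5, the immunophilin that glucocorticoids induce, fell most (-1.65). Of 36 other J-domain genes 10 were higher, with DNAJC6 in front (2.00), and 17 lower. HYOU1, an HSP110 of the endoplasmic reticulum, was the lowest of the other HSP70 genes (-0.88), and BAG1 the lowest of the exchange factors (-0.70). With PF-06873600 RGS2, a regulator of G protein signalling, had the largest rise (2.52) and DNAJC12 the largest fall (-1.06).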

How the data were processed

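The study sequenced RNA from 2 cell lines, A549 and SUM159, using a stranded preparation of polyadenylated RNA and single-end reads of 65 bases. The deposited tables are whole-number read counts per Ensembl gene. Per the labels, the authors mapped the reads to GRCh38 and counted them with the tools HISAT2 2.2.1 and HTSeq; the use of strand in the counting is not given in the sources used here. The summary lines of reads not assigned to a gene were left out of library totals and tests.

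Groups were taken from the sample labels. Gene symbols and coordinates were those of GENCODE 44, and promoter windows those of RefSeq for GRCh38.p14, 250 bases before each start. The rule for the members uses symbols alone, but the family and the lists of other genes were chosen with earlier results of these data known. Genes were filtered with filterByExpr, scaled by total counts and tested in edgeR 4.0.16 (R 4.3.3, limma 3.58.1) by quasi-likelihood F-tests with Benjamini-Hochberg adjustment over all tested genes at 0.05. Models held 10 A549 libraries, 4 SUM159 libraries or all 14. The SE of a log2 change is its size divided by the square root of F. Alternatives were TMM factors, DESeq2 1.42.0, no filter, only the compared groups, a replicate block and leaving out each library. The floor of 3 counts covers counting error only. Windows of 65 bases along each transcript were searched in all other transcripts. Genes were named with values for each library where a change of at least 2-fold was called in a comparison with untreated cells, and other members by role with examples. The fits were tested on simulated data before use. Figures were drawn with matplotlib 3.10.9.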

Additional observations from a re-analysis of the deposited data

Results flagged for a closer look

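Responses that differed between groups by a test of the difference were looked at again. In the response to PF-06873600, SUM159 minus A549, 3 members were above 0 and 34 below 0 (edgeR adjusted p under 0.05 in the model of 14 libraries). Among members with a difference of at least 2-fold, DNAJB4 (2.12 on the log2 scale) and HSPA13 (1.10) were above 0. Below 0 were the HSP70 and HSP110 genes HSPA14 (-1.90), HSPH1 (-1.89), HSPA4L (-1.78), HSPA8 (-1.16) and HSPA4 (-1.05), and the HSP90 genes CHORDC1 (-2.11), HSP90AA1 (-1.73), FKBP4 (-1.65), HSP90AB1 (-1.28), STIP1 (-1.25) and AHSA1 (-1.07). So were the TRiC/CCT subunits TCP1 (-1.65), CCT2 (-1.50), CCT6A (-1.42), CCT5 (-1.40), CCT4 (-1.15) and CCT7 (-1.04), the mitochondrial HSPD1 (-1.53), TRAP1 (-1.43) and HSPE1 (-1.32), and HSPB8 (-1.52), which rose in both lines and less in SUM159. Both lines received 0.5 µM for 7 days, and line and culture medium cannot be told apart.

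In A549 cells the log2 change with both drugs differed from the sum of the single changes for 22 members, with an interaction above 0 in 4 and below 0 in 18, and CRYAB (2.01) had the only interaction of at least 2-fold.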

How the results depend on the processing

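Of 268 calls of a member in a comparison, 206 were kept under every alternative, among them all 64 of at least 2-fold, and none changed sign. The calls that were lost were all of changes under 2-fold. With TMM factors, members higher with indisulam numbered 11 (main 20), members lower with both drugs 13 (main 8) and members lower in untreated SUM159 than in A549 cells 9 (main 5). DESeq2 gave 10 members higher with indisulam. With only the compared groups in the model, 4 members were higher with palbociclib (main 13), and 11 were higher and 1 lower with indisulam (main 20 and 4); this alternative was not run for the interaction and the difference between lines, and the SUM159 model holds no other groups.

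Leaving out each library in turn gave 4 to 15 members higher and 0 to 1 lower with palbociclib, 13 to 19 higher and 1 to 4 lower with indisulam, 10 to 15 lower with both drugs against palbociclib, 10 to 14 lower with both drugs against indisulam, and 2 to 5 with an interaction above 0. The lone call below untreated cells with palbociclib arose without untreated replicate 2. With indisulam, 13 were higher without indisulam replicate 2 and 1 lower without indisulam replicate 1. A group left with 1 library was taken to vary like the others. In SUM159 4 to 5 members were higher and 33 lower.

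Groups share replicate numbers, and same-numbered libraries did not deviate together in all pairs (correlations of deviations from -0.276 to 0.258 over 12214 genes). The numbers were therefore not used as pairs. With the replicate block 11 members were higher and 0 lower with palbociclib and 19 higher and 4 lower with indisulam, and the other counts did not change. With the palbociclib numbers crossed, a choice made after seeing the data, 14 were higher with palbociclib, and with the untreated SUM159 numbers crossed 29 were higher and 5 lower between the untreated lines. Depth was at least 13060374 counts a library, at which every member passed the filter, and 2 libraries a group limit the precision.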
